A study of Rattus norvegicus with 6 samples.

Results

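The genes examined encode enzymes that turn arachidonic acid into prostanoids and leukotrienes, and were measured in rat myocardium after ischemia and reperfusion. Of 10 genes named for these steps (Ptgs1, Ptgs2, Ptges, Ptges2, Ptgis, Ptgds, Pla2g4a, Alox5, Alox5ap and Alox15), 8 had a row under their symbol among the 28293 genes of the table. Ptges and Ptgis, the inducible prostaglandin E synthase and prostacyclin synthase, were not analysed here. RNA-seq was performed on myocardial tissue of 3 sham rats and 3 I/R rats, all male and wild type. In I/R rats a coronary artery, the left anterior descending branch, was closed for 30 min, and reperfusion then lasted 6 h before tissue collection. The same times are written in the labels of the sham rats. Strain and age were not given there. Each value is an FPKM, a fragment number divided by gene length and by the size of the library. The part of the heart that was sampled was not given, and in such bulk tissue a change in the number of cells of a type and a change in RNA per cell cannot be told apart.

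Arachidonic acid is cut from membrane phospholipids by phospholipases A2, among which the cytosolic enzyme encoded by Pla2g4a prefers this fatty acid. The cyclooxygenases encoded by Ptgs1 and Ptgs2 convert it to prostaglandin H2, from which terminal synthases make prostaglandin E2, prostaglandin D2, prostacyclin and thromboxane A2. Alox5, helped by the membrane protein encoded by Alox5ap, starts leukotriene synthesis instead, and Alox15 adds oxygen at other carbons. In the heart, Ptgs1 is known as the constitutive cyclooxygenase and Ptgs2 as the one induced by injury and inflammatory stimuli. Leukotriene B4 is a strong attractant for neutrophils.

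The 2 cyclooxygenase genes differed in direction, with Ptgs1 lower and Ptgs2 higher in every I/R rat than in every sham rat, and in I/R rats Ptgs2 came near the level of Ptgs1. Ptges2, encoding a prostaglandin E synthase, rose 3.80-fold in mean FPKM. No other gene of the 7 whose FPKM averaged at least 0.5 passed the test, so that 1 gene rose and 1, Ptgs1, fell, a call that did not hold in every alternative analysis. Ptgs2 averaged less than 0.5 FPKM, and its tests, given with its values below, used other filters. Over all 10942 genes tested in the same way, 25.5% were called higher and 7.36% lower. The test was limma on log2(FPKM + 0.1), with the p adjusted over all genes tested and called under 0.05. By their values alone, 3 of the 8 genes (Ptgs2, Ptges2 and Alox5ap) had all I/R rats above all sham rats, against 37.2% of the genes tested. The reverse held for 1 gene, Ptgs1, against 13.0% of the genes tested.

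**Figure D1:**
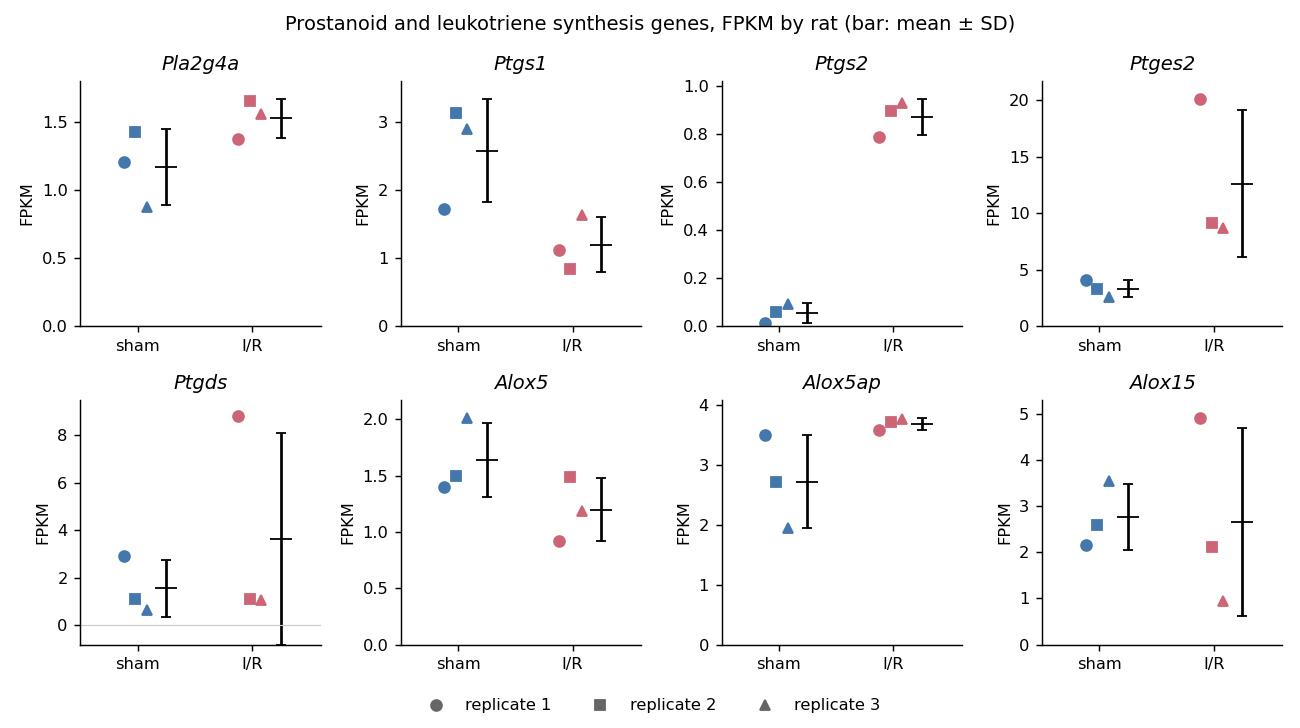
FPKM of each gene in each rat (vertical axes, linear, with their own range), with sham in blue, I/R in red, the replicate number as the symbol and the bars at mean ± SD (n = 3). The 3 I/R rats lie above the 3 sham rats for Ptgs2, Ptges2 and Alox5ap and below them for Ptgs1, while Ptgds and Alox15 spread widely within the I/R group.

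The FPKM of a sham library summed to between 894902 and 928941 and that of an I/R library to between 731063 and 825490. Of that sum, the 13 mitochondrially encoded mRNAs took 80.1%, 85.1% and 86.2% in sham and 61.8%, 70.9% and 71.5% in I/R replicates 1 to 3. An FPKM is a share of its library, so the genes were also compared after rescaling over those not encoded by mitochondrial DNA. Over all genes tested, the log2 fold change had a median of 0.29 with the deposited values and −0.48 after this rescaling, and the calls went from 2790 higher and 805 lower to 789 higher and 2989 lower. Absolute depth is unknown, but low values moved in whole steps in 1666 of 1705 genes of low level (97.7%, within 0.02 of a whole number), and relative to sham replicate 1 the depth was 1.18 and 1.14 in the other sham libraries and between 0.873 and 0.935 in the I/R libraries. The fragment numbers given below are the smallest whole numbers that fit these steps, and the true numbers may be a multiple of them.

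Marker genes of cardiac and blood cell types were read beside the enzymes. Of the cardiomyocyte markers found, 5 of 6 rose and their summed FPKM ranged from 3086 to 9779 in sham and from 17912 to 23421 in I/R rats. Of the neutrophil markers tested, 4 of 5 rose (sums of 13.0 to 18.0 in sham and 29.3 to 86.8 in I/R), and of 8 macrophage markers 1 rose and 2 fell (53.2 to 65.4 and 75.3 to 92.9). Mast cell markers held 3 of 6 that fell (22.5 to 57.5 and 13.8 to 22.3). Fibroblast markers held 2 of 7 that rose (267 to 345 and 381 to 406). None was called among 7 endothelial (173 to 227 and 170 to 213), 4 smooth muscle (57.3 to 252 and 79.4 to 285), 4 platelet (20.6 to 71.5 and 16.1 to 66.1) and 3 red blood cell markers (1063 to 1155 and 584 to 1675), nor for the 1 tested marker of the epicardium (3.90 to 6.54 and 4.55 to 7.80) and of adipocytes (9.12 to 11.6 and 5.89 to 13.3). Of the called markers, Mmp8 and Retnlg (neutrophil) reached the minimum of 0.5 FPKM only through the I/R group and Ms4a2 (mast cell) only through the sham group, so the counts of these lists partly follow from the filter. After rescaling without mitochondrial mRNAs, 4 cardiomyocyte and 3 neutrophil markers were called higher. Called lower there were 5 mast cell, 4 endothelial, 2 macrophage, 2 fibroblast, 1 red blood cell and 1 adipocyte marker. The 2 fibroblast markers called lower, Dcn and Pdgfra, were not the 2 called higher before, Col1a1 and Tcf21. Col1a1 and Tcf21 stayed positive, at 0.13 and 0.64 on the log2 scale, but were no longer called (limma adjusted p = 0.718 and 0.151). The platelet marker Gp1bb was listed at 0 in all 6 libraries. With the replicate number as a block, 1 endothelial marker was called higher.

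Arachidonic acid release was read first. In replicates 1 to 3, Pla2g4a had 1.21, 1.43 and 0.876 FPKM in the sham group and 1.37, 1.65 and 1.56 FPKM in the I/R group. The groups overlapped, since I/R replicate 1 lay under sham replicate 2. The log2 fold change was 0.38 (SE 0.26, 95% interval −0.20 to 0.96, limma adjusted p = 0.285), and it was −0.35 after rescaling without mitochondrial mRNAs.

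Among 11 other genes of arachidonate release, 7 were tested, of which 2 rose and 2 fell. Over all genes tested, 25.5% were called higher and 7.36% lower. Pla2g5, a secreted phospholipase A2, had 4.31, 4.96 and 3.41 FPKM in sham rats and 22.1, 15.5 and 14.6 FPKM in I/R rats. No I/R rat came near the sham range, and the log2 fold change was 2.01 (SE 0.25, limma adjusted p = 0.0019). Pla2g12a, another secreted enzyme, rose from 7.83 ± 3.46 to 22.5 ± 6.24 FPKM (SD, n = 3), by 1.58 on the log2 scale (limma adjusted p = 0.0096). Pla2g4b, a cytosolic relative of Pla2g4a, went the other way, from 4.34, 7.26 and 3.81 FPKM to 0.984, 1.89 and 1.42 FPKM, and fell by 1.76 on the log2 scale (limma adjusted p = 0.0046). Pla2g15, the lysosomal phospholipase A2, fell by 1.14 on that scale (limma adjusted p = 0.017). All 4 kept their direction and their call after rescaling without mitochondrial mRNAs. Among the called genes of this list, the secreted Pla2g5 and Pla2g12a were thus higher and Pla2g4b and Pla2g15 lower. Pla2g2a, also a secreted enzyme, overlapped between the groups and was not called (log2 fold change 1.09, limma adjusted p = 0.107).

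The cyclooxygenases gave the clearest contrast between 2 genes with the same reaction. Ptgs1 (ENSRNOG00000007415) had 1.72, 3.13 and 2.89 FPKM in the sham rats and 1.12, 0.837 and 1.63 FPKM in the I/R rats, in order of replicate. Every I/R rat was below every sham rat, although I/R replicate 3 came within 0.1 FPKM of sham replicate 1. The mean was 2.58 ± 0.755 FPKM in sham and 1.20 ± 0.403 FPKM in I/R rats (SD, n = 3), and Ptgs1 fell by 1.05 on the log2 scale (SE 0.31, limma adjusted p = 0.0292). The exact two-sided permutation test gave p = 0.1, the smallest it can give with 3 rats against 3. The fold change stayed negative in all 18 alternative analyses (−1.79 to −0.70), but the call was lost in 6 of them. These were the analysis without a filter (limma adjusted p = 0.0816), rescaling to TPM (0.0572), and leaving out sham replicate 2 (0.102), sham replicate 3 (0.105), I/R replicate 1 (0.0674) or I/R replicate 2 (0.0905).

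Platelets and mast cells are known to carry Ptgs1. The summed platelet markers were 20.6, 71.5 and 20.7 FPKM in the sham rats and 16.1, 21.0 and 66.1 FPKM in the I/R rats, in order of replicate. The highest Ptgs1 of each group was in the library with the highest platelet sum, sham replicate 2 and I/R replicate 3. Mast cell markers summed to 57.5, 24.9 and 22.5 FPKM in sham rats and to 14.1, 22.3 and 13.8 FPKM in I/R rats. Cpa3, Ms4a2 and Tpsab1 fell by 1.63, 1.21 and 1.35 on the log2 scale (limma adjusted p = 0.0286, 0.0398 and 0.0164), of which Ms4a2 reached the minimum only through the sham group. The other tested markers, Kit, Cma1 and Tpsb2, were not called, at 0.30, −1.29 and −0.44 (limma adjusted p = 0.596, 0.102 and 0.361). Within the sham group, mast cell markers were highest in replicate 1, where Ptgs1 was lowest. The part of either cell type in the change of Ptgs1 was not tested.

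Ptgs2 (ENSRNOG00000002525) was listed at 0.0108, 0.0595 and 0.0905 FPKM in the sham rats and at 0.787, 0.896 and 0.926 FPKM in the I/R rats, in order of replicate. The steps corresponded to 2, 13 and 19 fragments in the sham libraries and to 127, 155 and 151 fragments in the I/R libraries. The lowest I/R rat was far above the highest sham rat, and the I/R rats lay close together. Exact Poisson 95% intervals on these numbers ran from 0.00131 to 0.0391 FPKM in sham replicate 1 and from 0.0545 to 0.141 FPKM in sham replicate 3, whereas the lowest bound among the I/R libraries was 0.656 FPKM. They cover counting error only, and PCR copies of a fragment are not independent molecules.

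The mean of Ptgs2 was 0.0536 ± 0.0402 FPKM in sham and 0.870 ± 0.0735 FPKM in I/R rats (SD, n = 3), a ratio of means of 16.2. Its mean over all rats was under the minimum of 0.5, so it was tested among the 14093 genes averaging at least 0.1 FPKM, a minimum chosen after seeing the data and one that Ptgs2 met only through the I/R group. There the log2 fold change was 2.69 (SE 0.35, 95% interval 1.91 to 3.47, limma adjusted p = 0.0031), and 19.6% of genes were called higher. In the analysis with no filter, which kept all 19226 genes above 0 in any rat, the limma adjusted p was 0.0123 and 11.4% of genes were called higher. The size of the log2 fold change depended on the pseudocount, being 0.83 with 1 and 4.06 with 0.01. The call held in all 16 alternatives (limma adjusted p from 0.0013 to 0.0169). All of these but the analysis with no filter used the same minimum of 0.1, so they are not independent of that choice. After rescaling without mitochondrial mRNAs the log2 fold change was 2.17 (limma adjusted p = 0.0055). Neutrophil marker sums, at 18.0, 16.0 and 13.0 FPKM in sham and 29.3, 64.3 and 86.8 FPKM in I/R replicates 1 to 3, were also higher in every I/R rat, and their part in the change of Ptgs2 was not tested.

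A ratio of 2 genes within a library does not move with the scaling of that library. Ptgs2 made up 0.625%, 1.87% and 3.03% of the summed FPKM of the 2 cyclooxygenases in sham replicates 1 to 3, and 41.2%, 51.7% and 36.2% in I/R replicates 1 to 3. The sum itself was 1.73, 3.19 and 2.98 FPKM in sham and 1.91, 1.73 and 2.56 FPKM in I/R rats, so the groups overlapped in summed cyclooxygenase mRNA. In I/R replicate 2 the FPKM of Ptgs2 exceeded that of Ptgs1. The log2 ratio of Ptgs2 to Ptgs1, with 0.1 added to both and so not fully free of the scaling, was −4.12 ± 0.20 in sham and −0.38 ± 0.43 in I/R rats (SD, n = 3), a difference of 3.74 with an exact two-sided permutation p = 0.1 (0.1 after adjustment over 2 ratios), the smallest possible.

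**Figure D2:**
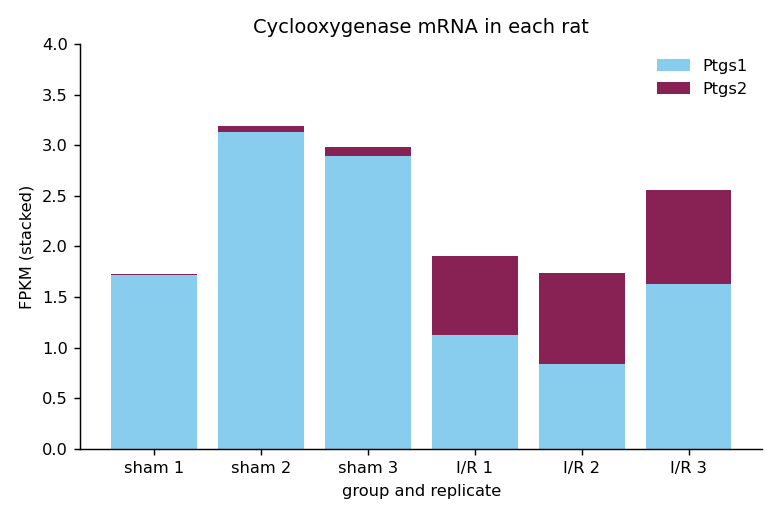
Stacked FPKM of Ptgs1 (light blue) and Ptgs2 (purple) in each rat, on a linear axis that starts at 0. Ptgs2 is barely visible in the 3 sham rats (0.625% to 3.03% of the sum) and makes up 36.2% to 51.7% of the bar in the 3 I/R rats, while the bar heights of the groups overlap.

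The bases before the start of both cyclooxygenase genes are shown because the genes share a reaction and differed in direction. The sequences are those of RefSeq for GRCr8, which held a promoter for 6 of the 10 genes, and each runs 5′ to 3′ over the 250 bases before the gene start on the plus strand. Capitals mark motif matches on either strand.
Ptgs1, chr3:39981169-39981418: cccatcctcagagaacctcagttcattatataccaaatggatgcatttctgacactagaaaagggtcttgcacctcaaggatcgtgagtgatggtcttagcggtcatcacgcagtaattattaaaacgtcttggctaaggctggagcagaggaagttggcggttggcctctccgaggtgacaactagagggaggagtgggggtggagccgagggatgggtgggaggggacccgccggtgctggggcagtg
Ptgs2, chr13:64713813-64714062: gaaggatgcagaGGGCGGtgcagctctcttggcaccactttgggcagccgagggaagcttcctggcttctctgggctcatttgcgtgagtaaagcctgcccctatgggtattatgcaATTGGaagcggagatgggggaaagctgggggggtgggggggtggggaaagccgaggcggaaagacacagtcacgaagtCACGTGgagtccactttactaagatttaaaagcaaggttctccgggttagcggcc
The 8 motifs searched were the TATA box, spelled TATAAA, the CCAAT box, the GC box, spelled GGGCGG, the cAMP response element, spelled TGACGTCA, and its part, spelled TGACG, the AP-1 site, spelled TGANTCA, the E-box, spelled CACGTG, and an NF-kB-like site, spelled GGGANTTTC. In the Ptgs2 window a GC box lay 238 bases before the start, a CCAAT box on the minus strand 133 bases before it and an E-box 55 bases before it, with no overlap among them. Of 33469 rat promoters of the same length, 30.5% held the GC box, 34.0% the CCAAT box and 5.59% the E-box. None of the 8 motifs was found in the Ptgs1 window. For the other motifs the share was 12.9% for the TATA box, 1.59% for the cAMP response element and 18.2% for its part, 6.34% for the AP-1 site and 0.953% for the NF-kB-like site. These matches are letters only, and no binding was measured. In the RefSeq table Ptgs2 and Pla2g4a lie on the same chromosome with 2 genes between them, neither of them protein-coding. The ratio of means was 16.2 for Ptgs2 and 1.30 for its neighbour Pla2g4a.

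Of the terminal synthases of prostanoids tested, Ptges2 was the only one called. Ptges2, which encodes a membrane-associated enzyme also called microsomal prostaglandin E synthase 2 (ENSRNOG00000014050), had 4.04, 3.30 and 2.61 FPKM in the sham rats and 20.1, 9.08 and 8.64 FPKM in the I/R rats, in order of replicate. All I/R rats were above all sham rats, with I/R replicate 1 far above the other 2. Its mean rose from 3.32 ± 0.716 to 12.6 ± 6.49 FPKM (SD, n = 3), by 1.80 on the log2 scale (SE 0.34, limma adjusted p = 0.0055). It was called higher in all 18 alternatives (limma adjusted p from 0.000494 to 0.0320), at 1.41 without I/R replicate 1 and at 1.03 after rescaling without mitochondrial mRNAs (limma adjusted p = 0.0176). The order of the 3 rats in each group was the same for Ptges2 as for the summed cardiomyocyte markers, at 9779, 3455 and 3086 FPKM in sham and 23421, 18528 and 17912 FPKM in I/R replicates 1 to 3. It was the reverse of the order of the mitochondrial share. The part of both in the change of Ptges2 was not tested.

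Ptgds, encoding the lipocalin-type prostaglandin D synthase, had 2.93, 1.11 and 0.660 FPKM in sham and 8.80, 1.101 and 1.06 FPKM in I/R replicates 1 to 3. Replicate 1 was highest in both groups, and the other I/R rats lay within the sham range. The log2 fold change was 0.72 (SE 0.75, limma adjusted p = 0.488), and it was −0.25 without I/R replicate 1, so its sign rested on that rat. It was −0.010 after rescaling without mitochondrial mRNAs. Of 6 further genes for terminal steps, 4 had a row and 3 were tested, with none called. Tbxas1, thromboxane synthase, had 0.4996, 0.412 and 0.891 FPKM in sham and 0.440, 0.329 and 1.09 FPKM in I/R rats. Among genes for prostanoid export and breakdown, 2 of 4 tested rose. They were Ptgr2 and the gene listed as Zadh2 (also called Ptgr3), both encoding prostaglandin reductases, at 0.87 and 1.30 on the log2 scale (limma adjusted p = 0.0326 and 0.0076). Neither kept its call after rescaling without mitochondrial mRNAs. There Slco2a1, of the same list, was called lower (−1.34, limma adjusted p = 0.0332), which it was not with the deposited values (−0.70, limma adjusted p = 0.205). Ptgr1, a related reductase named here after its values were seen, had a limma adjusted p of 0.0591, which became 0.0030 with the replicate number as a block.

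Receptors were read for the other end of the pathway. Of 9 prostanoid receptor genes, 8 had a row, 3 were tested and 1 rose. Ptger4, encoding the prostaglandin E2 receptor EP4, had 0.50, 0.54 and 0.55 FPKM in sham and 2.24, 3.94 and 2.35 FPKM in I/R replicates 1 to 3. The sham rats were almost equal and every I/R rat was far above them. Ptger4 rose by 2.17 on the log2 scale (SE 0.28, limma adjusted p = 0.0022), and by 1.46 after rescaling without mitochondrial mRNAs (limma adjusted p = 0.0086). The EP1 receptor gene Ptger1 had 2.98, 3.71 and 2.31 FPKM in sham and 2.53, 3.50 and 2.98 FPKM in I/R rats, with overlapping groups (log2 fold change 0.01, limma adjusted p = 0.968). The thromboxane receptor gene Tbxa2r was lower in every I/R rat (0.629 to 0.9032 FPKM) than in every sham rat (0.9035 to 1.33 FPKM), by a very narrow gap, but did not pass the test (limma adjusted p = 0.246), while it was called lower after rescaling without mitochondrial mRNAs (−1.17, limma adjusted p = 0.0229). The remaining 5 receptor genes with a row had means over all 6 rats under 0.5 FPKM.

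For leukotriene synthesis, Alox5, the 5-lipoxygenase, had 1.40, 1.497 and 2.02 FPKM in the sham rats and 0.923, 1.49 and 1.18 FPKM in the I/R rats, in order of replicate. The groups overlapped through I/R replicate 2. The log2 fold change was −0.43 (SE 0.27, limma adjusted p = 0.245), and −1.16 after rescaling without mitochondrial mRNAs, where it was called lower (limma adjusted p = 0.0251). Alox5ap, whose product presents arachidonic acid to 5-lipoxygenase, had 3.50, 2.71 and 1.94 FPKM in sham and 3.57, 3.72 and 3.77 FPKM in I/R replicates 1 to 3. The I/R rats were all higher and close together, but I/R replicate 1 exceeded sham replicate 1 only slightly. The log2 fold change was 0.46 (SE 0.25, 95% interval −0.09 to 1.02, limma adjusted p = 0.177), and −0.29 after rescaling without mitochondrial mRNAs.

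The log2 ratio of Alox5ap to Alox5, which the scaling moves only through the added 0.1, was 1.26, 0.81 and −0.05 in sham replicates 1 to 3 and 1.84, 1.26 and 1.59 in I/R replicates 1 to 3. The plain ratios overlapped, at 2.498 in sham replicate 1 and 2.496 in I/R replicate 2. The difference in log2 ratio was 0.89, and 0.53 without sham replicate 3. Its exact two-sided permutation p of 0.1 rests on a separation of the groups that is present only with the added 0.1, so nothing is read from it. Both genes are known from neutrophils, macrophages and mast cells, whose marker sums moved between the groups as given above, and the part of these cells in the ratio was not tested.

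Of 9 further genes of leukotriene synthesis and export, 8 had a row and 7 were tested, of which 1 rose and 1 fell. Mgst3, a microsomal glutathione transferase that is abundant in muscle and has other substrates, had 125, 36.5 and 31.4 FPKM in sham and 294, 193 and 219 FPKM in I/R rats, and rose by 2.15 on the log2 scale (SE 0.47, limma adjusted p = 0.0090). Abcc1, a transporter that exports leukotriene C4, fell from 1.57, 2.22 and 1.54 FPKM to 0.606, 0.864 and 0.515 FPKM, by 1.31 on the log2 scale (SE 0.29, limma adjusted p = 0.0093). Lta4h and Ltc4s, which encode leukotriene A4 hydrolase and leukotriene C4 synthase, had log2 fold changes of 0.01 and −0.21 and were not called (limma adjusted p = 0.988 and 0.575). After rescaling without mitochondrial mRNAs, Mgst3 stayed higher and 6 of the 7 genes were called lower. In that setting 2989 of all genes tested were called lower and 789 higher, with a median log2 fold change of −0.48. Lta4h and Ltc4s passed the threshold there by little (limma adjusted p = 0.042 and 0.0488). The 2 leukotriene receptor genes with a row, Cysltr2 and Ltb4r2, lay under 0.1 FPKM in every rat and were not tested.

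Alox15, the 12/15-lipoxygenase, had 2.15, 2.60 and 3.54 FPKM in the sham rats and 4.91, 2.11 and 0.948 FPKM in the I/R rats, in order of replicate. The I/R group held both the highest and the lowest value of the 6 rats. The means were close, at 2.76 ± 0.710 and 2.66 ± 2.04 FPKM (SD, n = 3), and the log2 fold change was −0.31 (SE 0.48, limma adjusted p = 0.648). It was 0.25 without I/R replicate 3. Alox12, a close paralog with which Alox15 may share reads, had 0.447, 1.38 and 0.509 FPKM in sham and 0.485, 0.453 and 1.95 FPKM in I/R rats. Alox12 was highest in sham replicate 2 and I/R replicate 3, the 2 libraries with the highest platelet sums. The part of platelets in its values, and any sharing of reads between Alox12 and Alox15, were not tested.

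**Figure D3:**
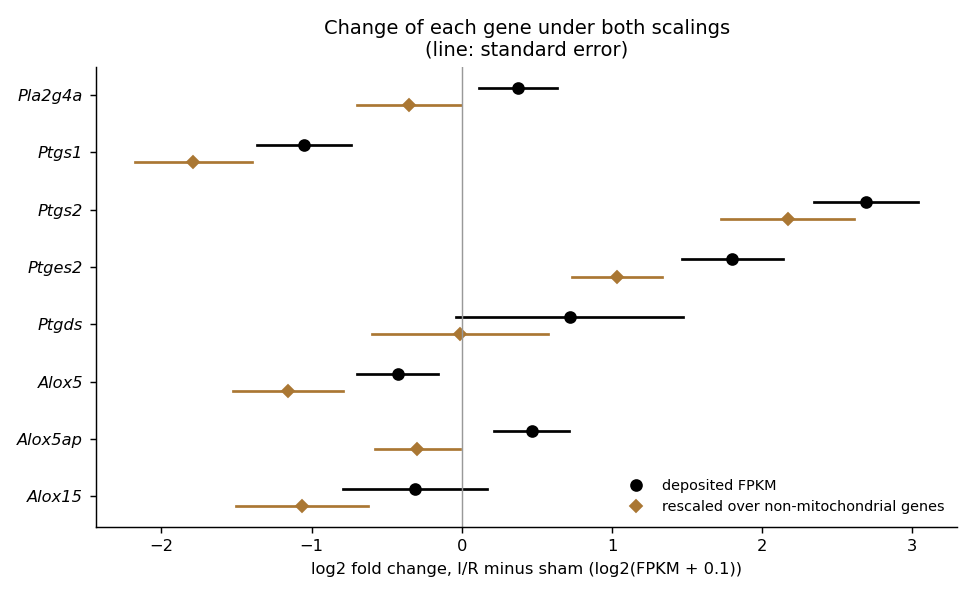
Log2 fold change of each gene, I/R minus sham, on log2(FPKM + 0.1), with the deposited FPKM in black and after rescaling over the genes not encoded by mitochondrial DNA in brown; lines are the standard errors from limma. Ptgs2 (2.69 and 2.17), Ptges2 (1.80 and 1.03) and Ptgs1 (−1.05 and −1.79) keep their sign, while Pla2g4a, Ptgds and Alox5ap change sign.

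In the sham group the order of mean FPKM was Ptges2, Alox15, Alox5ap, Ptgs1, Alox5, Ptgds, Pla2g4a and Ptgs2. The ranges of neighbours in this order overlapped except for Pla2g4a (0.876 to 1.43 FPKM) and Ptgs2 (0.0108 to 0.0905 FPKM). In the I/R group the order was Ptges2, Alox5ap, Ptgds, Alox15, Pla2g4a, Alox5, Ptgs1 and Ptgs2. There Ptges2 (8.64 to 20.1 FPKM) stood apart from Alox5ap (3.57 to 3.77 FPKM), and Ptgs2 (0.787 to 0.926 FPKM) overlapped with Ptgs1 (0.837 to 1.63 FPKM). Ptgs2 was thus the lowest in both groups, but only in sham rats was its range separate from that of its neighbour.

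Of all 59 other genes of the pathway, 53 had a row and 32 were tested. Of these, 8 rose, 3 fell and 21 were not called, beside 25.5% called higher and 7.36% lower over all genes tested. The median log2 fold change was 0.15, against 0.29 for all genes tested. After rescaling without mitochondrial mRNAs, 4 were called higher and 11 lower, beside 789 higher and 2989 lower of all genes tested. The median was then −0.60, against −0.48.

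**Figure D4:**
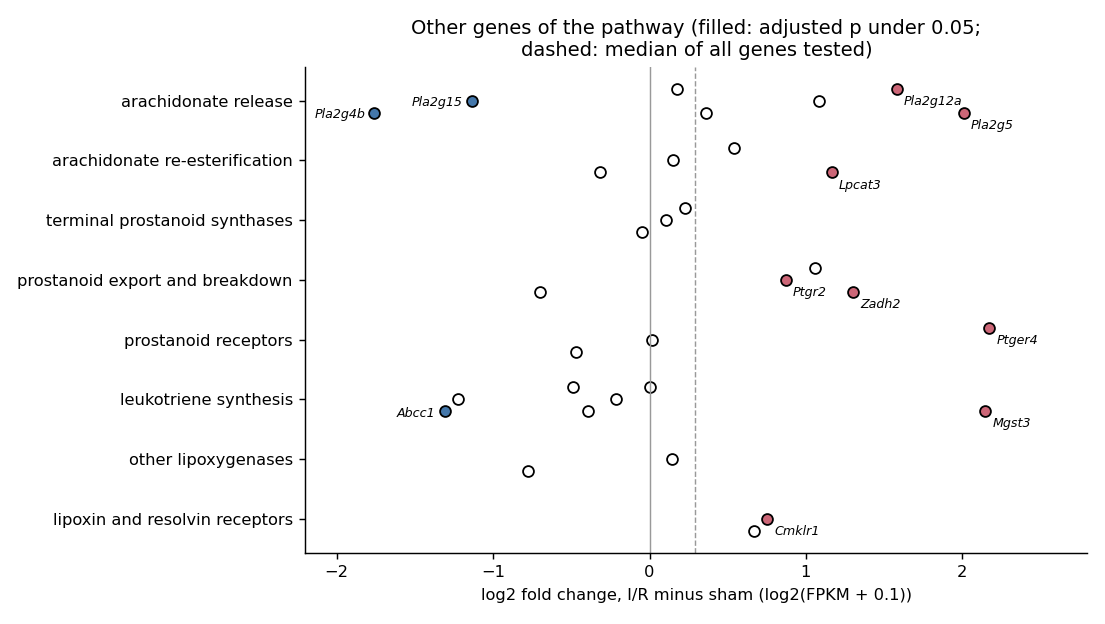
Log2 fold change, I/R minus sham, of the 32 tested genes of the pathway beyond the 10 listed at the start, by step (rows); filled points passed the limma test (red higher, blue lower) and the dashed line marks the median of all genes tested (0.29). The 8 genes that rose reach 2.17 (Ptger4), the 3 that fell reach −1.76 (Pla2g4b), and most points lie between.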

How the data were processed

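RNA-seq of myocardial tissue from 3 sham and 3 I/R rats was analysed. The authors deposited FPKM values per Ensembl gene and rat in 1 table, made from stranded total RNA libraries. The submitters' processing notes name STAR and HTSeq, with no version, and the genome build and annotation are not given in the sources used here. Rows with the same symbol were summed (30452 rows to 28293 genes). The 10 genes and all lists were chosen with earlier results of these data known.

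The 10942 genes averaging at least 0.5 FPKM were compared as log2(FPKM + 0.1) with limma 3.58.1 in R 4.3.3 (intensity trend, Benjamini-Hochberg adjustment, threshold 0.05). The test was run on simulated data first. Fold changes on this scale understate the change of low genes. The labels only number the samples of a group, which were taken as separate rats. The test sets the group difference against the spread between these samples, moderated over all genes, and that spread may be technical. Beyond the 10 genes, called genes without overlap were named from each list, at most 3 in each direction. A ratio of Ptges to Ptges2 and of Ptges to Ptgis was planned and could not be formed. Deviations from the group means correlated over genes at 0.203, 0.117 and 0.118 for same-numbered rats, replicates 1 to 3. Sham 3 with I/R 2 gave 0.120, and the other pairs lay under 0. These deviations sum to 0 within a group, so the pairs are not independent and a pairing by number is not shown. The number also entered a second fit as a block. The labels name no shared day or litter. Alternatives were pseudocounts of 1 and 0.01, other filters, TPM, median centring, quantile normalization, rescaling without the 13 mitochondrial mRNAs, limma without trend, the highest row of each symbol and leaving out each rat. The minimum mean FPKM of 0.1 was added after seeing the data. Intervals are at 95%.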

Additional observations from a re-analysis of the deposited data

How the results depend on the processing

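Called higher among the enzymes were 2 genes, Ptgs2 and Ptges2, both without a filter and at a mean FPKM of at least 0.1, against 1 with the usual minimum. The shares of all genes called higher were 11.4% and 19.6% there, and Ptgs2 met the minimum of 0.1 only through the I/R group. Called lower were 0 without a filter and after rescaling to TPM, 2 (Ptgs1 and Alox5) after rescaling without mitochondrial mRNAs, and 0 to 1 when 1 rat was left out. Over all genes, 1441 were higher with quantile normalization and 789 after rescaling without mitochondrial mRNAs, and 1528 to 2557 when 1 rat was left out (1528 without sham replicate 3). Lower were 500 with TPM (3474 higher), 1554 with median centring (2020 higher), 1559 with quantile normalization and 2989 after rescaling without mitochondrial mRNAs, and 309 to 881 when 1 rat was left out (309 without sham replicate 2, 359 without sham replicate 3). The log2 ratio of Ptgs2 to Ptgs1 differed by 1.52 with a pseudocount of 1 and by 5.17 with 0.01. Values that turned were Pla2g4a (−0.35), Alox5ap (−0.29) and Ptgds (−0.010) after rescaling without mitochondrial mRNAs, Ptgds when 1 rat was left out (−0.25 to 1.27) and Alox15 when 1 rat was left out (−0.88 to 0.25). The cause of these differences was not tested. An analysis without 1 rat holds fewer rats, and one with a lower minimum or no filter holds more genes.

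With the replicate block, the limma adjusted p was 0.0223 for Ptgs1 and 0.000494 for Ptges2, and 3085 genes were higher and 895 lower. For Ptgs2 it was 0.0013, at the minimum of 0.1 FPKM that this gene met only through the I/R group. Among the enzymes and pathway genes, the block changed no call other than that of Ptgr1. Ptgs2, at 2 to 19 fragments in a sham library, is the one among the 8 enzymes whose level the depth limits most.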

Other observations

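Genes beside the main routes were also read. Of 4 genes that return arachidonic acid to phospholipids, 1 rose. Lpcat3, an acyltransferase of phospholipid remodelling, had 2.41, 4.44 and 2.75 FPKM in sham and 12.2, 5.28 and 5.45 FPKM in I/R replicates 1 to 3. All I/R rats were higher, replicate 1 by far, and the log2 fold change was 1.17 (SE 0.36, limma adjusted p = 0.0325), or 0.40 after rescaling without mitochondrial mRNAs (limma adjusted p = 0.396).

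Of 5 other lipoxygenase genes, Alox12b, Alox12e and Alox15b were listed at 0 in all 6 libraries, and Alox12 and Aloxe3 were not called (limma adjusted p = 0.864 and 0.201). Aloxe3 was called lower after rescaling without mitochondrial mRNAs (−1.53, limma adjusted p = 0.0117). Of 5 genes for receptors of lipoxins and resolvins, 2 were tested and 1 rose. Cmklr1, encoding a receptor for chemerin and resolvin E1, had 1.47, 1.81 and 1.43 FPKM in sham and 2.88, 2.62 and 2.61 FPKM in I/R rats. The groups did not overlap, and the log2 fold change was 0.75 (SE 0.22, limma adjusted p = 0.0253). After rescaling without mitochondrial mRNAs it was 0.0023 (limma adjusted p = 0.996), so the call rests on the scaling.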
